A study of Homo sapiens with 24 samples.

Results

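Uptake, activation and competing pools of cytidine analogues were described in A2780 and A2780cis ovarian cancer cells through 10 genes, chosen by their role from the 63299 genes of the deposited table: the nucleoside transporters SLC29A1 and SLC29A2, the kinases UCK1, UCK2, UCKL1 and CMPK1, the breakdown enzymes CDA and UPP1, and CTPS1 and UMPS of pyrimidine nucleotide synthesis. All 10 were matched by Ensembl identifier. Total RNA was sequenced in 24 libraries, 3 for each of 8 groups. A2780 is an established ovarian cancer cell line sensitive to cisplatin, and A2780cis is its isogenic resistant counterpart, kept resistant by intermittent passage in medium with 1 µM cisplatin. Cells of either line received 1 µM 5-FdU-ECyd or fresh medium alone for 6 h or 12 h, and no library of ECyd or of 5-FdU alone was analysed here. The sensitive and the resistant state are each represented by 1 line. The paper calls the 3 libraries of a group biological triplicates, but does not spell out how far their cultures were independent. The p-values therefore measure the spread between these libraries and not between lines of either state.

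5-FdU-ECyd joins the thymidylate synthase inhibitor 5-FdU to 3'-C-ethynylcytidine, ECyd, an inhibitor of RNA synthesis. Nucleosides of this kind cross the plasma membrane mainly through the equilibrative transporters ENT1 and ENT2, the products of SLC29A1 and SLC29A2. Uridine-cytidine kinase adds the first phosphate to uridine, cytidine and ECyd, UMP-CMP kinase, the product of CMPK1, adds the next, and the triphosphate then competes with CTP for RNA polymerase. UCK2 is the more active uridine-cytidine kinase and is known as the main activator of ECyd, whereas UCK1 is its widely expressed paralogue.

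The windows of 250 bases before the annotated start of UCK1, UCK2 and SLC29A1 are shown because the transcripts of these genes moved in different ways under treatment. They were taken from RefSeq sequences of GRCh38.p14 and run 5′ to 3′ on the strand of the gene, with matched motifs in capitals. In UCK1 (chr9:131531264-131531513, minus strand) the capitals at the end mark CCGGAAGT. In UCK2 (chr1:165827364-165827613, plus strand) they mark the GC box GGGCGG, which reads CCGCCC on the other strand, and the CCAAT box, which reads ATTGG on the other strand. In SLC29A1 (chr6:44219365-44219614, plus strand) they mark the E-box CACGTG and the GC box. The RefSeq start of SLC29A1 lies downstream of 44219553, the gene start in the GENCODE annotation used for the gene coordinates. The last bases of that window, with its last GC box, thus lie inside the gene by GENCODE.
UCK1: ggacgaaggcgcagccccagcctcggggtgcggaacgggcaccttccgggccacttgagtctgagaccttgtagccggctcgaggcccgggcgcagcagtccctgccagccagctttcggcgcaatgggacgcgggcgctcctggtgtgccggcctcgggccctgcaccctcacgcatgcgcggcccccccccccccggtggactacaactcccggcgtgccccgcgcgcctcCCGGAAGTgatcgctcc
UCK2: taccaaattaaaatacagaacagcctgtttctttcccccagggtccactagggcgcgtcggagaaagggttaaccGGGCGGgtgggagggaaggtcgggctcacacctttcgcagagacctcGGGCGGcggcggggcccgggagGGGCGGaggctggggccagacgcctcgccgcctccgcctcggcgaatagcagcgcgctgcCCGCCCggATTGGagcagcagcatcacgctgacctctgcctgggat
SLC29A1: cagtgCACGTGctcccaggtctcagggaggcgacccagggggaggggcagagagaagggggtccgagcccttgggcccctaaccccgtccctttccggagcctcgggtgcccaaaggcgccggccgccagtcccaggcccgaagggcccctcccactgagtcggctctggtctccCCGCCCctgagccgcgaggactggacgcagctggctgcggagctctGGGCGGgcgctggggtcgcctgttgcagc
Both strands were searched for the E-box CACGTG, the GC box GGGCGG, the CCAAT box, the TATA box with the letters TATAAA, the p53 decamer and the ETS motif CCGGAAGT, the last of them chosen after the sequences had been read. Of 35116 promoter windows of the same length, 42.6% held the GC box, 32% the CCAAT box, 10.7% the TATA box, 6.34% the E-box, 5.57% the p53 decamer and 3.42% the ETS motif. The GC box stood 4 times in UCK2, 2 times in SLC29A1 and 0 times in UCK1, and the p53 decamer was in none of these 3 windows. A match describes letters and not a bound site.

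Counts per library ranged from 11077368 to 21901406. Levels are given as CPM, the counts scaled to a common library size after TMM normalisation. Each log2 FC and its adjusted p comes from a quasi-likelihood test of edgeR, adjusted by the method of Benjamini and Hochberg over 20240 genes, with an adjusted p of at most 0.05 as the threshold for up- or down-regulation. CPM is a share of the counted reads, so the total RNA of a culture is not measured, and in bulk RNA fewer cells of a type and less RNA per cell cannot be told apart. Most defining markers of the labelled tissue were absent or near 0. As group means, KRT7 was at 0 CPM, PAX8, MUC16 and WT1 reached at most 0.0633 CPM and CDH1 at most 0.0630 CPM. KRT19 reached at most 0.146 CPM, ESR1 0.263 CPM, EPCAM 1.35 CPM and KRT8 5.97 CPM. KRT18 lay between 1.11 and 2.89 CPM in A2780 and between 23.4 and 26.5 CPM in A2780cis. Of the mesenchymal markers, VIM lay between 843 and 2617 CPM. CDH2 lay between 14.3 and 49.7 CPM in A2780 and between 1.28 and 5.93 CPM in A2780cis. Of the markers of other cell types, PTPRC of immune cells and PECAM1 and VWF of endothelial cells reached at most 0.0284 CPM. CD68 of macrophages lay between 2.83 and 7.46 CPM. The fibroblast markers COL1A1, COL1A2 and DCN reached 14.7, 57.2 and 10.9 CPM in A2780. In A2780cis they reached at most 2.69, 0.180 and 1.07 CPM, so the 2 lines did not share 1 marker profile.

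Of the 9 members that passed the filter on low counts, 3 passed the test after 6 h in A2780 (29.4% of all genes tested), 3 in A2780cis (30.7%), and after 12 h 6 in A2780 (54.8%) and 6 in A2780cis (59.9%). Untreated and treated libraries did not overlap for 3 and 6 members at 6 h and for 7 and 6 members at 12 h in A2780 and A2780cis, where 41.6%, 43.2%, 64% and 59.6% of all genes tested did not. UCK1 was up-regulated and UCK2 down-regulated in all 4 comparisons. The share of all genes tested that passed in the same direction in all 4 was not taken. SLC29A2 was down-regulated at 12 h in both lines, CTPS1 in 3 comparisons, and SLC29A1 was up-regulated in A2780 at both times and down-regulated in A2780cis at 12 h. UCKL1 and CMPK1 passed the test in none of the 4 treatment comparisons. The median log2 FC of the 9 members was -0.02 and -0.11 at 6 h and 0.24 and -0.17 at 12 h in A2780 and A2780cis, against medians between 0.00 and 0.04 over all genes tested.

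**Figure D1:**
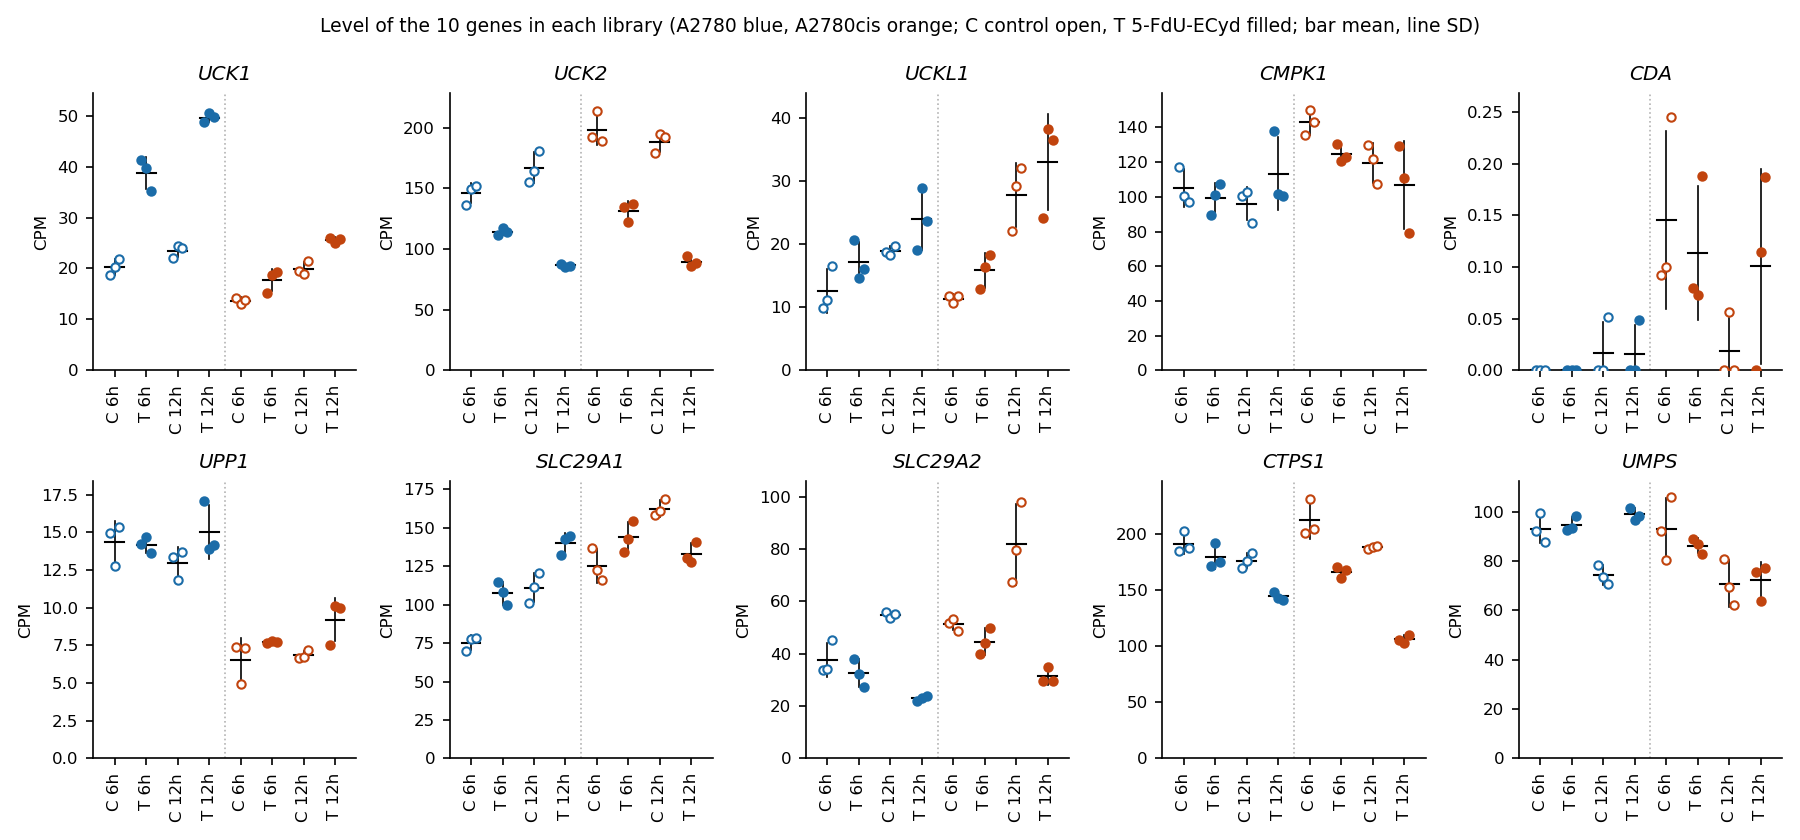
Level of each member in CPM (linear axis from 0) in the 8 groups of line, treatment and time, with 1 point per library and the mean and SD of 3 libraries. In A2780 at 12 h, UCK1 lies at 22.1 to 24.5 CPM untreated and at 48.7 to 50.4 CPM treated, and UCK2 at 156 to 181 CPM untreated and at 85.6 to 87.7 CPM treated.

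The transporters moved in different ways. SLC29A1 (ENSG00000112759.16, chr6:44219553-44234142, plus strand) encodes ENT1, the equilibrative transporter that carries most nucleoside drugs. In A2780 it stood at 69.6, 77.6 and 78.4 CPM in the untreated libraries of 6 h and at 115, 108 and 99.6 CPM after treatment, and at 101, 112 and 120.3 CPM untreated and 132, 143 and 145 CPM treated at 12 h. In A2780 the treated libraries lay above the untreated ones at both times. The log2 FC was 0.52 (SE 0.0886, adjusted p = 9.56e-05) at 6 h and 0.33 (SE 0.0862, adjusted p = 0.00190) at 12 h.

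In A2780cis the same transcript started higher. It stood at 137, 123 and 116 CPM untreated and 134, 143 and 154 CPM treated at 6 h, and at 158, 161 and 169 CPM untreated and 131, 128 and 141 CPM treated at 12 h. At 6 h the libraries overlapped, and at 12 h all 3 treated libraries lay below the untreated ones. The log2 FC was 0.20 (SE 0.0868, adjusted p = 0.0834) at 6 h, which did not pass the threshold, and -0.29 (SE 0.0859, adjusted p = 0.00553) at 12 h. Scaling by library size alone, under which the median of all genes was 0.10 at 6 h and 0.15 at 12 h, gave 0.30 (adjusted p = 0.0189) at 6 h and -0.18 (adjusted p = 0.0928) at 12 h, and the 6 h value was 0.27 (adjusted p = 0.0408) without untreated replicate 1. The treatment effect at 12 h differed between the lines by -0.62 (SE 0.122, adjusted p = 6.89e-04) in edgeR's quasi-likelihood test, and that of 6 h by -0.32 (adjusted p = 0.184).

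SLC29A2 (ENSG00000174669.11, chr11:66362521-66372214, minus strand) encodes ENT2, an equilibrative transporter with lower affinity for most nucleosides. In A2780 it stood at 33.6, 34.2 and 45.2 CPM untreated and 38.1, 32.1 and 27.4 CPM treated at 6 h, and at 55.8, 53.5 and 55.3 CPM untreated and 21.8, 23.1 and 24.05 CPM treated at 12 h. In A2780cis the values were 51.8, 53.4 and 48.7 CPM and 39.8, 44.1 and 49.99 CPM at 6 h, and 67.3, 79.8 and 98.1 CPM and 29.6, 34.9 and 29.4 CPM at 12 h. Untreated and treated libraries overlapped at 6 h and were apart at 12 h in both lines, with the treated ones lower.

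The log2 FC of SLC29A2 at 6 h was -0.21 (adjusted p = 0.264) in A2780 and -0.20 (adjusted p = 0.283) in A2780cis, below the threshold of the test. At 12 h it was -1.25 (SE 0.136, adjusted p = 2.15e-08) in A2780 and -1.38 (SE 0.134, adjusted p = 2.36e-09) in A2780cis, the strongest decline among the 9 members in either line. The treatment effect differed between 12 h and 6 h in 3 of the 9 members in A2780 (23.7% of all genes tested) and 4 in A2780cis (24%). For SLC29A2 it did in both lines, with -1.04 (adjusted p = 4.09e-04) in A2780 and -1.18 (adjusted p = 8.65e-05) in A2780cis. The difference between the lines at 12 h was -0.13 (SE 0.189, adjusted p = 0.675), which did not pass, and it was 0.023 without untreated A2780cis replicate 3. B4GAT1-DT, a lncRNA on the opposite strand, shares 279 bases or 10.3% of the SLC29A2 exons, and its own log2 FC at 12 h was -0.85 and -1.23. Its median count was 63.65 against 516 for SLC29A2. Since reads over several genes were counted for each of them and the strand setting is not given in the sources used here, reads of these genes cannot be told apart there.

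**Figure D2:**
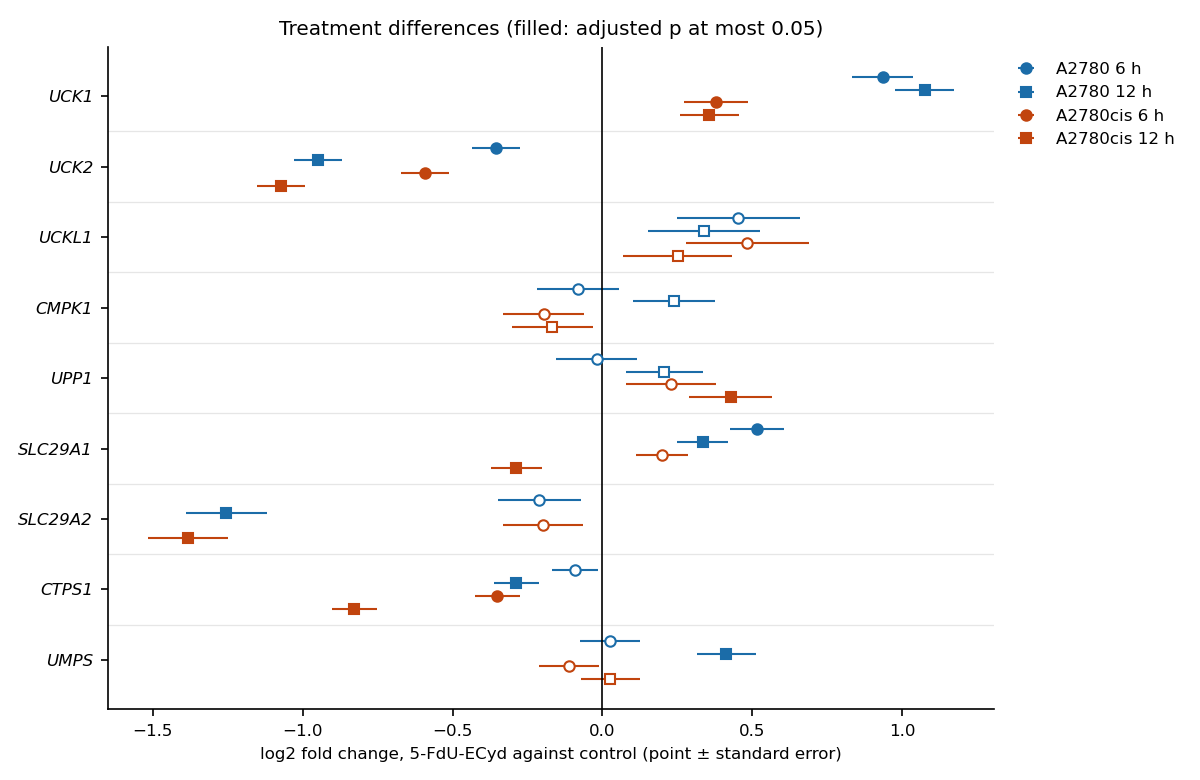
Treatment log2 FC of the 9 members tested (horizontal axis) in each line at 6 h and 12 h, with bars of 1 SE and filled points for an adjusted p of at most 0.05. UCK1 lies to the right of 0 and UCK2 to the left in all 4 comparisons, and SLC29A2 reaches -1.25 in A2780 and -1.38 in A2780cis at 12 h.

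The uridine-cytidine kinases moved apart. UCK1 (ENSG00000130717.12, chr9:131523801-131531264, minus strand) stood in A2780 at 18.7, 20.2 and 21.9 CPM untreated and 41.3, 39.8 and 35.2 CPM treated at 6 h, and at 22.1, 24.5 and 23.9 CPM untreated and 48.7, 50.4 and 49.7 CPM treated at 12 h. All 3 treated libraries lay above all untreated ones at each time. The log2 FC was 0.94 (SE 0.102, adjusted p = 1.78e-07) at 6 h and 1.08 (SE 0.0979, adjusted p = 1.08e-09) at 12 h, a rise of 2.11-fold at 12 h.

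In A2780cis UCK1 stood at 14.2, 12.9 and 13.9 CPM untreated and 15.2, 18.7 and 19.4 CPM treated at 6 h, and at 19.6, 18.9 and 21.4 CPM untreated and 25.98, 24.98 and 25.8 CPM treated at 12 h. The treated libraries lay above the untreated ones at both times, by less than in A2780. The log2 FC was 0.38 (SE 0.108, adjusted p = 0.00888) at 6 h and 0.36 (SE 0.0996, adjusted p = 0.00319) at 12 h. Without treated replicate 3 of 6 h the log2 FC of 6 h was 0.31 (adjusted p = 0.0735), and with no filter on low counts that of 12 h was 0.31 (adjusted p = 0.0635).

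The treatment effect on UCK1 was lower in A2780cis than in A2780, by -0.56 (SE 0.148, adjusted p = 0.0358) at 6 h and -0.72 (SE 0.139, adjusted p = 6.24e-04) at 12 h in edgeR's quasi-likelihood test. Of the 9 members tested, 1 passed this test at 6 h (3.07% of all genes) and 4 passed at 12 h (23.7%), all 4 with the lower effect in A2780cis (14%). The 6 h result for UCK1 was lost with library size alone, with no filter on low counts, with a fit of the compared groups alone, and without replicate 1 or 2 of untreated or treated A2780, replicate 1 or 3 of untreated A2780cis, or replicate 1 or 2 of treated A2780cis, with adjusted p-values between 0.0603 and 0.183. UCK1 shares 6 exonic bases with POMT1 on the opposite strand.

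UCK2 (ENSG00000143179.13, chr1:165827614-165911618, plus strand) stood in A2780 at 136, 149.8 and 152 CPM untreated and 111, 117 and 114 CPM treated at 6 h, and at 156, 165 and 181 CPM untreated and 87.7, 85.6 and 86.3 CPM treated at 12 h. In A2780cis it stood at 192, 213 and 189 CPM and 135, 123 and 137 CPM at 6 h, and at 179, 194 and 192 CPM and 94.2, 86.1 and 88.4 CPM at 12 h. The treated libraries were below the untreated ones in each of the 4 comparisons, with no overlap. The log2 FC was -0.35 (SE 0.0794, adjusted p = 0.00149) at 6 h and -0.95 (SE 0.0792, adjusted p = 2.27e-10) at 12 h in A2780, where the level reached 0.518 of the untreated level.

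In A2780cis the log2 FC of UCK2 was -0.59 (SE 0.0788, adjusted p = 3.03e-06) at 6 h and -1.07 (SE 0.0793, adjusted p = 1.82e-11) at 12 h. The decline deepened from 6 h to 12 h in both lines, by -0.59 (adjusted p = 4.79e-04) in A2780 and -0.48 (adjusted p = 0.00287) in A2780cis. Between the lines the treatment effect differed by -0.24 (SE 0.112, adjusted p = 0.292) at 6 h and -0.12 (SE 0.111, adjusted p = 0.460) at 12 h, neither past the threshold. An antisense lncRNA, ENSG00000236364, shares 413 bases or 5.91% of the UCK2 exons and had a log2 FC of -0.76 and -1.18 at 12 h. The protein-coding gene TMCO1, also on the opposite strand, shares 142 bases or 2.03%. Its log2 FC at 12 h was 0.05 in A2780 and 0.26 in A2780cis, neither past the threshold. Median counts were 153 for the lncRNA and 643.5 for TMCO1, against 1763.5 for UCK2.

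UCK1 and UCK2 are paralogues, and their coding sequences of 834 and 786 bases were 73.5% identical over 780 aligned bases. Over their whole canonical transcripts the longest shared run was 23 bases and no word of 36 bases was shared. SLC29A1 and SLC29A2, with coding sequences of 1371 bases each, were 66.3% identical, and their canonical transcripts shared no run above 16 bases. Counts that were not whole, a sign of reads with several alignments, occurred in at most 16.7% of the libraries for any member, in CMPK1. The share of such reads was not measured, since fractions can add up to whole counts.

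The ratio of UCK2 to UCK1 counts within a library does not depend on how libraries are scaled. In A2780 it ran from 6.95 to 7.40 untreated and from 2.70 to 3.25 treated at 6 h, and from 6.72 to 7.55 untreated and from 1.70 to 1.80 treated at 12 h. In A2780cis it ran from 13.5 to 16.5 untreated and from 6.56 to 8.84 treated at 6 h, and from 8.96 to 10.3 untreated and from 3.43 to 3.63 treated at 12 h. Treated libraries had the lower ratio in each line at each time, and A2780cis the higher ratio within each pairing of treatment and time.
For the transporters, the ratio of SLC29A1 to SLC29A2 counts rose from between 1.81 and 2.18 to between 6.02 and 6.20 at 12 h in A2780, and from between 1.72 and 2.35 to between 3.66 and 4.80 in A2780cis. These ratios are of counts and not of transcript numbers, since the genes differ in length. Per length of the canonical transcript, the UCK2 to UCK1 ratio in treated A2780 of 12 h ran from 0.764 to 0.811. On the merged exons it ran from 0.652 to 0.692, so UCK1 stood above UCK2 there by either length. The next lowest group was treated A2780 of 6 h, with 1.22 to 1.46 on the canonical transcript.

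**Figure D3:**
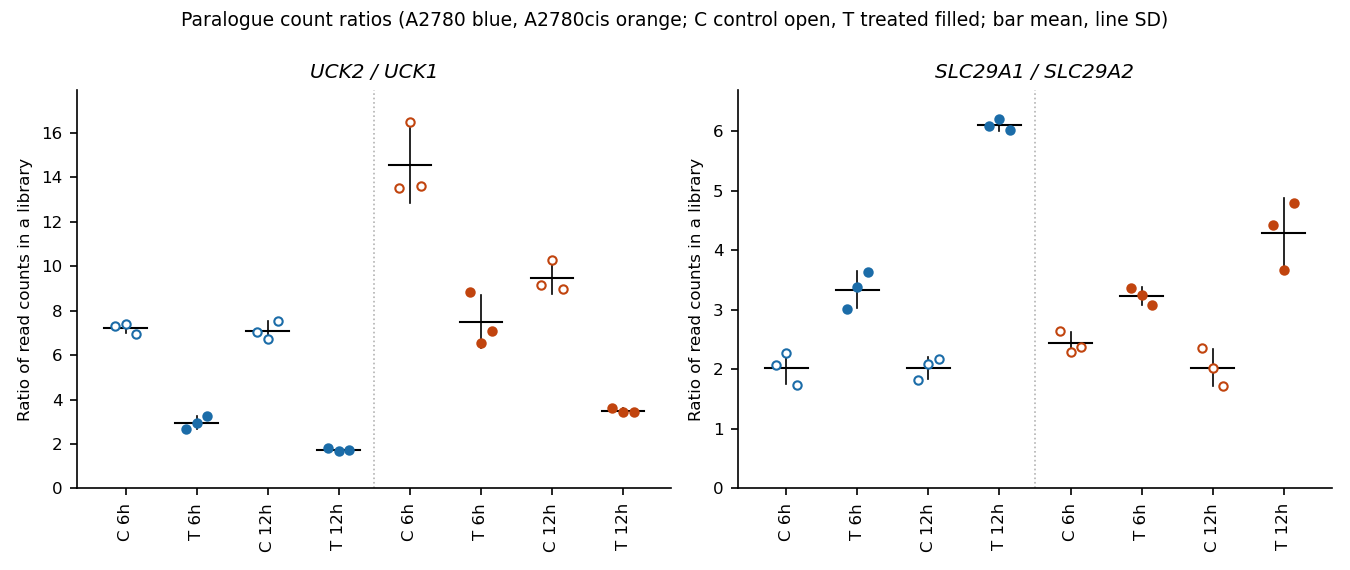
Ratio of counts within each library, UCK2 to UCK1 and SLC29A1 to SLC29A2, by group, with 1 point per library and the mean and SD of 3. The UCK2 to UCK1 ratio is 6.72 to 7.55 in untreated and from 1.70 to 1.80 in treated A2780 at 12 h.

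UCKL1 (ENSG00000198276.14, chr20:63939829-63956416, minus strand), a homologue whose kinase activity is less well described, did not pass the test in any treatment comparison. Its treatment log2 FC was 0.45 (SE 0.204, adjusted p = 0.0969) and 0.34 (SE 0.186, adjusted p = 0.128) at 6 h and 12 h in A2780, and 0.48 (SE 0.205, adjusted p = 0.0749) and 0.25 (SE 0.182, adjusted p = 0.241) in A2780cis. The untreated and treated libraries overlapped in A2780 at both times and in A2780cis at 12 h, but not in A2780cis at 6 h, where they stood at 11.8, 10.6 and 11.8 CPM untreated and 12.9, 16.4 and 18.4 CPM treated. In A2780 at 6 h the level was 9.98, 11.2 and 16.6 CPM untreated and 20.7, 14.6 and 16.1 CPM treated. UCKL1-AS1, on the opposite strand, shares 157 exonic bases (4.93%) and rose by between 1.33 and 1.75 on the log2 scale in the 4 comparisons.
The UCKL1 result turned on single choices. In A2780 at 6 h it was 0.70 (adjusted p = 0.0162) without untreated replicate 3, 0.46 (adjusted p = 0.0178) with no filter on low counts and 0.48 (adjusted p = 0.0484) with a replicate block. In A2780cis at 6 h it was 0.51 (adjusted p = 0.00642) with no filter and 0.52 (adjusted p = 0.0192) with the compared groups fitted alone. Without treated replicate 1 it was 0.61 (adjusted p = 0.0374). In A2780 at 12 h it was 0.56 (adjusted p = 0.0279) with library size alone and 0.36 (adjusted p = 0.0446) with the compared groups fitted alone.

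CMPK1 (ENSG00000162368.13, chr1:47333790-47394866, plus strand) encodes UMP-CMP kinase, which makes the diphosphates. It stood at 97.3 to 117 CPM in untreated A2780 of 6 h and at 135 to 150.01 CPM in untreated A2780cis. The 4 treatment comparisons did not pass the test, and the log2 FC ranged from -0.20 in A2780cis at 6 h (adjusted p = 0.295) to 0.24 in A2780 at 12 h (adjusted p = 0.141). The SE was 0.136 to 0.138. With library size alone the A2780 value of 12 h was 0.46 (adjusted p = 0.00563), and without treated replicate 1 the A2780cis value of 12 h was -0.36 (adjusted p = 0.0308).

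CTPS1 and UMPS supply the natural pools that cytidine analogues compete with. CTPS1 (ENSG00000171793.13, chr1:40979300-41012565, plus strand) makes CTP from UTP. It stood in A2780 at 184, 202 and 187 CPM untreated and 172, 192 and 175 CPM treated at 6 h, and at 169.8, 176 and 183 CPM untreated and 148, 143 and 142 CPM treated at 12 h. In A2780cis it stood at 201, 231 and 204 CPM and 171, 161 and 167 CPM at 6 h, and at 187, 189 and 189 CPM and 106, 103 and 109.8 CPM at 12 h. The libraries overlapped in A2780 at 6 h and were apart in the other comparisons.

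The log2 FC of CTPS1 in A2780 was -0.09 (adjusted p = 0.387) at 6 h, which did not pass, and -0.29 (SE 0.0749, adjusted p = 0.00210) at 12 h. With library size alone, under which the median of all genes was 0.24, the latter was -0.07 (adjusted p = 0.411). In A2780cis CTPS1 was down-regulated at both times, with -0.35 (SE 0.0752, adjusted p = 9.17e-04) at 6 h and -0.83 (SE 0.0756, adjusted p = 8.11e-10) at 12 h, and the lines differed at 12 h by -0.54 (adjusted p = 7.13e-04). At 6 h the difference between the lines was -0.26 (adjusted p = 0.210).

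UMPS (ENSG00000114491.13, chr3:124730433-124749273, plus strand) makes UMP, the last step of de novo synthesis. It stood at 78.5, 73.4 and 70.7 CPM untreated and 102, 96.8 and 98.2 CPM treated in A2780 at 12 h, with no overlap. The log2 FC of that comparison was 0.41 (SE 0.0993, adjusted p = 9.78e-04), and those of the other 3 were 0.02, -0.11 and 0.03 in A2780 at 6 h and in A2780cis at 6 h and 12 h, none past the threshold. The line difference at 12 h was -0.39 (adjusted p = 0.0468), and the difference between 12 h and 6 h in A2780 0.39 (adjusted p = 0.0462). In A2780 the mean untreated level was 93.1 CPM at 6 h and 74.2 CPM at 12 h. The mean treated level was 94.6 and 98.8 CPM, so the untreated level moved more between the times. The line difference was lost without replicate 2 or 3 of untreated A2780, any replicate of treated A2780, replicate 1 or 2 of untreated A2780cis or replicate 2 of treated A2780cis, and in 2 other fits, with adjusted p-values between 0.0668 and 0.157. The time difference was lost without replicate 1 or 2 of untreated or any replicate of treated A2780 of 6 h, replicate 2 or 3 of untreated or replicate 1 or 3 of treated A2780 of 12 h, and with no filter on low counts, with adjusted p-values between 0.0532 and 0.149.

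Of the breakdown enzymes, UPP1 (ENSG00000183696.13, chr7:48088628-48108736, plus strand), which cleaves uridine to uracil, stood lower in A2780cis than in A2780 in each pairing of treatment and time. It stood at 6.65, 6.74 and 7.18 CPM untreated and 7.56, 10.1 and 9.97 CPM treated in A2780cis at 12 h, and the treated libraries lay above the untreated ones. The log2 FC was 0.43 (SE 0.138, adjusted p = 0.00960), and 0.35 (adjusted p = 0.0510) and 0.34 (adjusted p = 0.0666) without treated replicate 2 or 3 and 0.38 (adjusted p = 0.0594) with no filter on low counts. The other log2 FC values were -0.02 (adjusted p = 0.931), 0.23 (adjusted p = 0.265) and 0.21 (adjusted p = 0.178) for A2780 at 6 h, A2780cis at 6 h and A2780 at 12 h, none past the threshold, although with library size alone the last was 0.43 (adjusted p = 0.0105).

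CDA (ENSG00000158825.5, chr1:20589086-20618903, plus strand), which deaminates cytidine to uridine, was all but undetected and could not be tested. Of the 12 libraries of each line, 2 of A2780 held a CDA count, of 1 each, and 9 of A2780cis held 1 to 4 counts. A count of 0 allows up to 3 counts, which is 0.141 to 0.301 CPM at these depths, and covers counting error only. With so few counts no fold was taken, and the highest CDA level was 0.245 CPM, in untreated A2780cis replicate 3 of 6 h, from 3 counts.

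Levels can be compared between genes only per length, here as CPM per kilobase of the canonical transcript. In untreated A2780 of 12 h the order ran from CTPS1 at 62.02 ± 2.27 and SLC29A1 at 53.3 ± 4.59, through UCK2 at 34.8 ± 2.68 and CMPK1 at 32.7 ± 3.26, to SLC29A2 at 22.4 ± 0.498, UMPS at 11.2 ± 0.603, UCK1 at 10.9 ± 0.577, UCKL1 at 10.3 ± 0.408 and UPP1 at 7.80 ± 0.614 CPM per kilobase (mean ± SD, n = 3). The libraries of UCK2 and CMPK1 overlapped, as did those of UMPS and UCK1 and of UCK1 and UCKL1, and the other neighbours did not. In untreated A2780cis of 12 h SLC29A1 stood above CTPS1, at 78.04 ± 2.59 against 66.3 ± 0.404 CPM per kilobase, with no overlap. CTPS1 has 11958 bases of merged exons against 2840 in its canonical transcript, and on the merged length it fell to the fifth place behind SLC29A1, UCK2, CMPK1 and SLC29A2.

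**Figure D4:**
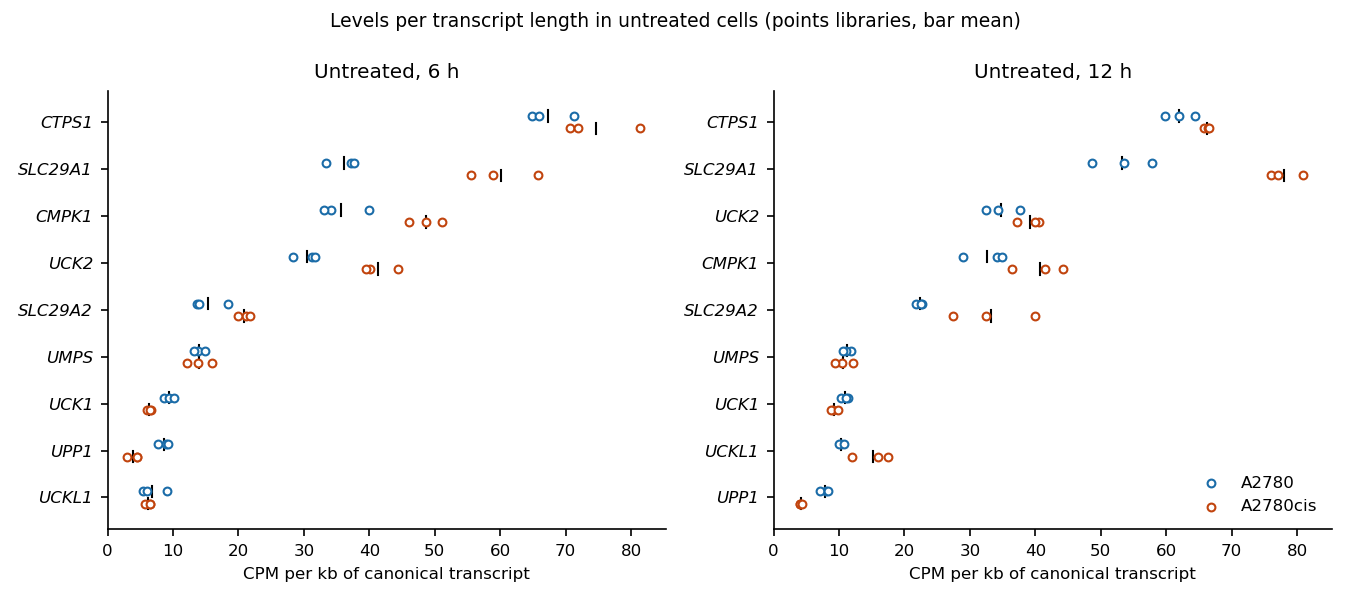
Level of the 9 members tested in CPM per kilobase of canonical transcript (linear axis) in untreated cells of 6 h and 12 h, with 1 point per library and a bar for the mean of 3 libraries, A2780 in blue and A2780cis in orange. At 12 h SLC29A1 lies at 78.04 ± 2.59 in A2780cis and 53.3 ± 4.59 in A2780 (mean ± SD), and UPP1 lies lowest.

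Across the 8 groups the UCK1 level ran from 13.7 ± 0.675 CPM in untreated A2780cis of 6 h to 49.6 ± 0.871 CPM in treated A2780 of 12 h (mean ± SD, n = 3). The libraries of untreated A2780 of 6 h and untreated A2780cis of 12 h overlapped, as did those of untreated A2780cis of 12 h and treated A2780cis of 6 h, and the other neighbours in the order did not. UCK2 ran in the other direction, from 86.5 ± 1.10 CPM in treated A2780 of 12 h to 198 ± 13.1 CPM in untreated A2780cis of 6 h. Treated A2780 and treated A2780cis of 12 h overlapped in UCK2 and were the lowest groups.

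Between the untreated lines, 6 of the 9 members tested differed at 6 h (47.9% of all genes) and 5 at 12 h (52.9%). UPP1 was lower in A2780cis, at 7.39, 4.91 and 7.36 CPM against 14.9, 12.8 and 15.4 CPM in A2780 at 6 h, with a log2 FC of -1.12 (SE 0.146, adjusted p = 3.52e-07) at 6 h and -0.92 (SE 0.135, adjusted p = 2.11e-06) at 12 h. SLC29A1 was higher in A2780cis by 0.74 (adjusted p = 9.64e-08) at 6 h and 0.55 (adjusted p = 5.75e-06) at 12 h, and SLC29A2 by 0.45 (adjusted p = 0.00803) and 0.57 (adjusted p = 5.68e-04). The SLC29A2 difference at 6 h was 0.34 (adjusted p = 0.0808) with library size alone and 0.37 (adjusted p = 0.0510) without untreated A2780 replicate 1. Both transporters thus stood higher in untreated A2780cis than in A2780 by edgeR's quasi-likelihood test.

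Of the kinases, UCK2 was higher in untreated A2780cis at 6 h by 0.44 (adjusted p = 3.88e-05) and at 12 h had 0.17 (adjusted p = 0.0635), which did not pass. In 3 of 13 alternatives the 12 h value of UCK2 passed, among them the DESeq2 Wald test (0.18, adjusted p = 0.0314). UCK1 was lower by -0.56 (adjusted p = 9.88e-05) at 6 h and -0.24 (adjusted p = 0.0483) at 12 h, the latter lost without any replicate of untreated A2780, without replicate 1 or 2 of untreated A2780cis and in 4 other fits, with adjusted p-values between 0.0539 and 0.220. CMPK1 was higher at 6 h by 0.44 (adjusted p = 0.00912), and at 12 h had 0.32 (adjusted p = 0.0502), which 7 alternatives placed past the threshold. UCKL1 had -0.13 (adjusted p = 0.646) at 6 h and was higher in A2780cis at 12 h by 0.55 (adjusted p = 0.0152), or 0.43 (adjusted p = 0.0815) without untreated A2780cis replicate 3.

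Untreated cells also differed between 12 h and 6 h, in 4 of the 9 members in A2780 (26.9% of all genes) and 5 in A2780cis (39.9%). SLC29A1 rose by 0.56 (adjusted p = 3.27e-04) and 0.38 (adjusted p = 0.00158), SLC29A2 by 0.55 (adjusted p = 0.00550) and 0.67 (adjusted p = 4.28e-04), and UCKL1 by 0.60 (adjusted p = 0.0274) and 1.28 (adjusted p = 5.92e-05) in A2780 and A2780cis. UMPS fell by 0.33 (adjusted p = 0.0185) and 0.39 (adjusted p = 0.00360), and UCK1 rose in A2780cis by 0.54 (adjusted p = 3.92e-04). The UMPS libraries of the 2 times were apart in A2780 and overlapped in A2780cis. The 12 h libraries were also deeper, with a median of 17423522 counts against 11704301 in untreated A2780 and 18277766 against 12092593 in untreated A2780cis, and the part of depth in these differences was not tested. UCKL1 in A2780 lost the threshold without replicate 1 or 2 of 6 h or 1 or 3 of 12 h, UMPS in A2780 without replicate 1 or 2 of 6 h or 2 or 3 of 12 h and with no filter on low counts (-0.30, adjusted p = 0.0633), UMPS in A2780cis with the compared groups fitted alone (-0.31, adjusted p = 0.0613), and SLC29A2 in A2780 without replicate 1 of 6 h (0.47, adjusted p = 0.0507). In A2780, leaving out untreated replicate 1 of 6 h left 1 member past the threshold, and leaving out replicate 2 of 6 h or replicate 3 of 12 h left 2.

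Among 41 other genes of pyrimidine handling, 33 were tested, and 9 passed in A2780 and 10 in A2780cis at 6 h, and 16 in each line at 12 h, beside 29.4%, 30.7%, 54.8% and 59.9% of all genes tested in the same order. At 12 h 7 were up- and 9 down-regulated in each line, and at 6 h 6 were up-regulated in each line with 3 down-regulated in A2780 and 4 in A2780cis. Of all genes tested, 16% and 14.4% were up- and 13.4% and 16.3% down-regulated at 6 h in A2780 and A2780cis, and 28.6% and 31% up- and 26.1% and 28.9% down-regulated at 12 h. The 6 h count in A2780 was 5 without untreated replicate 1. NT5C2, TK1 and ABCC4 passed in all 4 comparisons in the same direction. How many of all genes tested did so was not counted, so this agreement is not set apart from the general response. NT5C2, a cytosolic nucleotidase best known for purine monophosphates, fell with log2 FC values of -0.74, -1.06, -1.11 and -2.07 in A2780 and A2780cis at 6 h and then at 12 h. TK1, the thymidine kinase that also phosphorylates 5-FdU, rose with 1.07, 0.69, 0.69 and 0.51 in the same order. ABCC4, an efflux pump of nucleotides, fell with -0.42, -0.67, -1.34 and -1.49. The highest adjusted p in these 12 values was 0.00685, for TK1 in A2780cis at 12 h.

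The 3 genes of de novo synthesis in this list, which does not hold UMPS and CTPS1, were down-regulated at 12 h in both lines, where 26.1% and 28.9% of all genes tested were, and they were named after their values were seen. UMPS, of the same pathway, was up-regulated in A2780 at 12 h (0.41) and had 0.03 in A2780cis. CAD, which opens de novo pyrimidine synthesis, had log2 FC values of -0.55 in A2780 and -0.97 in A2780cis. DHODH, the mitochondrial dehydrogenase of the pathway, had -0.60 and -0.44. CTPS2, the paralogue of CTPS1, had -0.51 and -0.71. The highest adjusted p of these 6 values was 0.00301, for CAD in A2780. The concentrative transporters SLC28A1, SLC28A2 and SLC28A3 did not pass the filter on low counts.

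The genes most alike to UCK1 in level over the 24 libraries, among 12517 genes, were TEAD3 (Pearson r = 0.967), ZNF672 (0.961) and INAVA (0.960). Those most alike to UCK2 were DYM (0.981), PCBP2 (0.980) and PMM2 (0.980), and those most alike to SLC29A1 were SOX13 (0.949), ENSG00000221995.5 (0.946) and MYO18A (0.941). The libraries share line, treatment and time, and these values describe likeness alone.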

How the data were processed

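Total RNA libraries of a stranded kit were sequenced in 24 samples of 8 groups, mapped to groups by the sample labels. The authors deposited estimated counts per gene: per the paper's supplement and the labels' processing notes, reads were trimmed with Trimmomatic, aligned with STAR 2.5.2b to GRCh38.p7 and counted on exons with featureCounts, with fractions for reads with several alignments and with overlaps between genes allowed. Reads are single according to the labels and paired-end according to the paper, and the strand setting is not given in the sources used here.

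Identifiers were looked up in GENCODE 44 (GRCh38), where 56948 of 63299 were found. Counts were rounded and tested in R 4.3.3 with edgeR 4.0.16: filterByExpr (minimum count 10, minimum total 15), TMM normalisation, 1 coefficient per group, 16 residual degrees of freedom, edgeR's quasi-likelihood test, two-sided, with Benjamini-Hochberg adjustment over 20240 genes and a threshold of 0.05. Totals per library were 11077368 to 21901406. Differences of the treatment effect between lines or times were tested as interactions. Untreated lines and untreated times were compared directly, group against group. Tried instead were library size alone, DESeq2 size factors, unrounded counts, no filter, a model of the compared groups alone, a replicate block, the DESeq2 1.42.0 Wald test, and leaving out each library in turn. The procedure was tested on simulated data. Figures were made in matplotlib 3.10.9 with pandas 2.3.3 under Python 3.11.15.

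The members and gene lists were chosen with earlier results of these data known. All 10 members were named, with other pathway genes past the threshold in the same direction in all 4 treatment comparisons at a mean log2 CPM of at least 2, at most 8 of them, and the 3 genes most correlated with UCK1, UCK2 and SLC29A1. Promoter windows came from RefSeq, where 9 of 10 members were matched.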

Additional observations from a re-analysis of the deposited data

Results flagged for a closer look

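The following treatment effects of members differed between the lines or between the times by edgeR's quasi-likelihood test of the interaction, with Benjamini-Hochberg adjustment. A negative value means a lower log2 FC in A2780cis than in A2780, or at 12 h than at 6 h.

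For UCK1 the effect of treatment was lower in A2780cis by -0.56 at 6 h (adjusted p = 0.0358) and -0.72 at 12 h (adjusted p = 6.24e-04). At 12 h the same held for SLC29A1 (-0.62, adjusted p = 6.89e-04), CTPS1 (-0.54, adjusted p = 7.13e-04) and UMPS (-0.39, adjusted p = 0.0468). The 6 h result of UCK1 lost the threshold in 11 of 19 alternatives and that of UMPS in 10 of 19, and those of SLC29A1 and CTPS1 in 0.

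The effect of treatment was lower at 12 h than at 6 h for UCK2 in A2780 (-0.59) and A2780cis (-0.48), for SLC29A2 in A2780 (-1.04) and A2780cis (-1.18), and in A2780cis for SLC29A1 (-0.49) and CTPS1 (-0.48). For UMPS in A2780 it was higher at 12 h (0.39, adjusted p = 0.0462), which was lost in 10 of 19 alternatives. These interactions passed in 3 of 9 members in A2780, where 23.7% of all genes tested passed, and in 4 of 9 in A2780cis, where 24% passed.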

How the results depend on the processing

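Of 108 results of members, 50 passed the threshold. Alternatives were recomputed for 75 results, which hold all 50 and only some of those that did not pass. Over 722 alternatives of those that passed, 661 kept direction and threshold, 61 lost the threshold and 0 turned direction, and 35 of the 50 never lost it. Over 355 alternatives of the recomputed results that did not pass, 23 passed the threshold in the same direction. The number of members past the threshold for the line by treatment difference at 6 h, 1 by edgeR's quasi-likelihood test, was 0 with library size alone, 0 with no filter on low counts and 0 with the compared groups fitted alone, and ran from 0 to 1 with a library left out, with 4 members at an unadjusted p under 0.05. For untreated A2780 over time it ran from 1 to 4 with a library left out, and for the other pathway genes in A2780 at 6 h from 5 to 8. Among results below the threshold, direction turned for CMPK1 in A2780 at 6 h (-0.14 to 0.0063 with a library left out), SLC29A2 in the line by treatment difference at 12 h (-0.25 to 0.023), UPP1 in A2780 at 6 h (0.043 with library size alone, -0.094 to 0.028 with a library left out) and UMPS. UMPS in A2780 at 6 h was -0.015 with size factors as in DESeq2, -0.012 by the DESeq2 Wald test and -0.017 to 0.073 with a library left out, and in A2780cis at 12 h -0.025 with no filter and -0.066 to 0.13 with a library left out. The cause was not tested.

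The replicate numbers gave no sign of pairing in the deviations of log2 CPM from the mean of each group. These deviations correlated between -0.25 and 0.31 for same-numbered untreated and treated libraries, with 1 of 12 pairs above 0.1. In 5 of 24 libraries they correlated best with the library of the same number. With the replicate block, members past the threshold numbered 4 (A2780) and 3 (A2780cis) at 6 h and 6 in each line at 12 h, and 6 for the untreated lines at 12 h. Under the block UCKL1 in A2780 at 6 h (0.48, adjusted p = 0.0484) and CMPK1 between the untreated lines at 12 h (0.32, adjusted p = 0.0276) also passed. Fractions of a CPM, as for CDA, lie below what these depths resolve.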
